A study of Saccharomyces cerevisiae with 24 samples.

Results

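The proteasome is the large protease of the cytoplasm and nucleus that unfolds and degrades proteins marked with ubiquitin. Its core particle is a barrel of alpha and beta rings with the protease sites inside, and its regulatory particle, made of a base and a lid, recognises ubiquitin, removes it and threads the substrate into the barrel. In yeast the transcription factor Rpn4 raises most proteasome genes together and is itself degraded by the proteasome. Dedicated chaperones assemble the rings and the base. The set described here holds 42 genes of the budding yeast proteasome, of 5656 genes with a probe set that names them alone. They were chosen by name: the subunits of the core and regulatory particles, the transcription factor RPN4, assembly chaperones, and the associated proteins ECM29 and BLM10. All 42 were measured, and where several probe sets name a gene the one of highest mean signal was used. All 42 lay above the array background in all 12 strains, and NAS2 did so on 23 of the 24 arrays.

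The arrays compared wild-type BY4741, a haploid laboratory strain of mating type a, with 11 strains that each lacked 1 ribosomal protein gene. Small subunit genes were missing in rps0a, rps0b, rps18a and rps18b, and large subunit genes in both RPL7 and both RPL12 deletions (rpl7a, rpl7b, rpl12a, rpl12b), in both RPL22 deletions (rpl22a, rpl22b) and in rpl14a. The question was whether duplicate ribosomal protein genes serve the cell in the same way. All 12 strains grew in YPD, a rich medium, at 30 °C to early log phase, with 2 biological replicates, each on its own array. The labels do not say whether a deletion strain was 1 clone or several. A signal per array cannot tell less of an RNA in each cell from fewer cells that hold that RNA.

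Differences are given on the log2 scale after quantile normalization, as the mean of 2 arrays minus the mean of 2 wild-type arrays, with the standard error of limma's fit over all 24 arrays. A gene was called changed at a Benjamini-Hochberg adjusted p under 0.05 over 9275 probe sets. Signals are the deposited linear values, which were not adjusted between arrays here. All 11 comparisons with wild type share the same 2 wild-type arrays. A second scale, the signal relative to the median of its own array, is given where it changes a direction. Array medians ranged from 36.3 to 61.4 and backgrounds from 5.55 to 30.8. The highest background, in rps0a replicate 2, stood apart from the rest. The genes RPL7A, RPL7B, RPL14A, RPL22A, RPL22B, RPS0A and RPS0B have a probe set of their own, and each was low in the strain labelled with its loss. The genes deleted in rpl12a, rpl12b, rps18a and rps18b have none, so those labels were not checked in this way. In 3 strains most genes of 1 chromosome were higher than in wild type: chromosome XVI in rpl7a, chromosome V in rpl12b and chromosome VIII in rpl14a. Their genes had median differences of 0.94, 0.93 and 0.79, and the other 173 of 176 chromosome medians lay between -0.15 and 0.15. Chromosome copy number was not measured.

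Few tests of a single proteasome gene passed the threshold. Of 462 tests of a member against wild type 12 did, 11 higher and 1 lower, or 2.6%, where 1.69% of all probe-set tests against wild type did. An unadjusted p under 0.05 was found in 56 of the 462, or 12.1%, close to the 11.7% of all probe-set tests. The calls fell on 10 members, and 32 members were called in no deletion. Members on the raised chromosome of a strain gave 7 calls in 9 tests, where 41.1% of such tests of all genes gave one. All other member tests gave 5 calls in 453, with 4 higher and 1 lower, and the share called elsewhere was 1.24% over all genes. The 7 calls on raised chromosomes were PRE2, RPN7 and POC4 in rpl7a, PUP3, PRE1 and RPN3 in rpl12b, and ECM29 in rpl14a. The other 5 were RPT6 and RPN8 in rpl7a, POC4 in rpl12b and in rpl22a, and NAS2 in rpl14a.

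**Figure D1:**
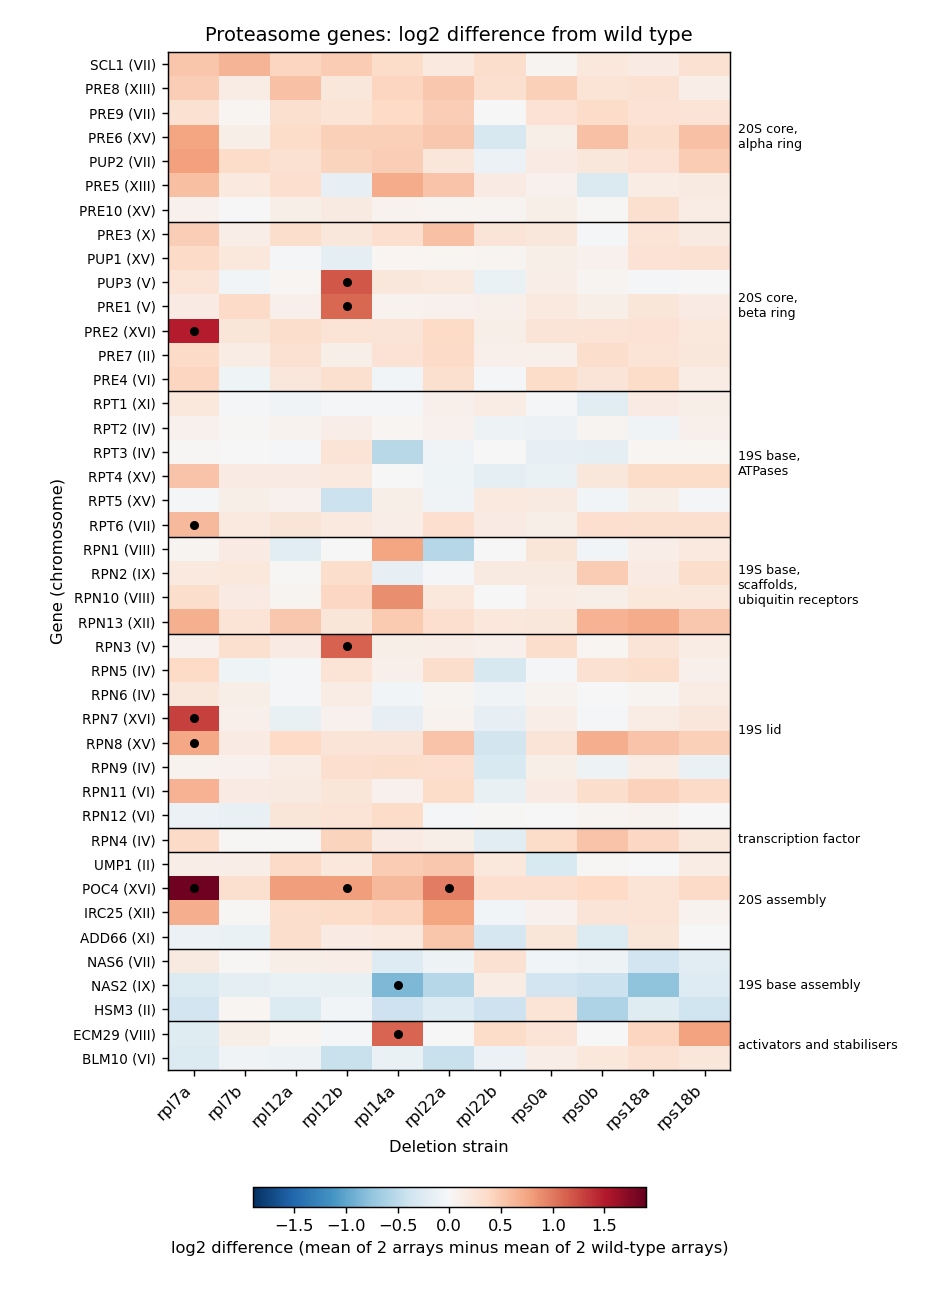
The log2 difference from wild type is shown for each of the 42 genes (rows, with chromosome, grouped by role) in each of the 11 deletions (columns), red for higher and blue for lower. Black dots mark the 12 tests that passed the threshold, from POC4 at 1.84 in rpl7a to NAS2 at -0.85 in rpl14a.

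In rpl7a 5 members were called, all higher, where 6.54% of all probe sets were called and 3.57% were called higher. PRE2, the core subunit with the chymotrypsin-like protease site, had signals of 1719 and 1445 in rpl7a and of 775 and 808 in wild type. Both rpl7a arrays were above every other array, since PRE2 lay between 529 and 1207 on the 20 arrays of the other strains. The difference was 1.49 ± 0.25 (SE), with an adjusted p of 0.0024. RPN7, a subunit of the lid, had signals of 899 and 738 in rpl7a against 446 and 422 in wild type. On the other 20 arrays it did not exceed 477, and rpl7a again stood clear of all others. Its difference was 1.30 ± 0.16, with an adjusted p of 0.00037.

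POC4, a chaperone that pairs with the product of IRC25 to build the alpha ring, moved most among the 42 genes. Its signals were 686 and 809 in rpl7a against 257 and 278 in wild type. The other 20 arrays spanned 205 to 590, so the rpl7a arrays lay above all of them. The difference was 1.84 ± 0.16, a 3.59-fold change, with an adjusted p of 3.9e-05. The 3 genes lie on chromosome XVI, at the loci YPR103W (PRE2), YPR108W (RPN7) and YPL144W (POC4).

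The other 2 calls in rpl7a lay elsewhere in the genome and were smaller. RPN8, the lid subunit that partners the deubiquitinase Rpn11, is on chromosome XV and had signals of 240 and 221 in rpl7a against 155 and 171 in wild type. Its difference was 0.74 ± 0.19, with an adjusted p of 0.0308. RPT6, an ATPase of the base on chromosome VII, had signals of 936 and 848 in rpl7a against 784 and 840 in wild type. The rpl7a arrays were above both wild-type arrays by little, and other strains reached 1094. The normalized difference of RPT6 was 0.62 ± 0.15, with an adjusted p of 0.0225, and 0.25 relative to the array median. Both calls were lost without either wild-type or either rpl7a array, with median centring in place of quantile normalization, and with no normalization. Close to the threshold but not called were RPN11, the deubiquitinase, at 0.65 (adjusted p 0.0539), the alpha ring subunit PRE6 at 0.75 (0.0672) and IRC25 at 0.70 (0.0844).

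In rpl12b 4 members were called, all higher, where 2.1% of probe sets were called and 1.5% were called higher. PUP3, a beta ring subunit without a protease site, had signals of 1497 and 1481 in rpl12b against 745 and 759 in wild type. No array of another strain passed 956, so rpl12b stood apart. Its difference was 1.18 ± 0.14, with an adjusted p of 0.0011. PRE1, its neighbour in the beta ring, had signals of 1034 and 811 against 493 and 506, a difference of 1.09 ± 0.24 (adjusted p 0.0361). RPN3, a lid subunit, had signals of 525 and 456 against 234 and 271, a difference of 1.12 ± 0.19 (adjusted p 0.0087). Neither gene overlapped wild type, and both were above the 20 arrays of the other strains, which reached 663 for PRE1 and 385 for RPN3. PUP3 (YER094C), PRE1 (YER012W) and RPN3 (YER021W) all lie on chromosome V. On median centring the calls of PRE1 and of POC4 in this strain were lost. The call of PRE1 was also lost without either array of wild type, rpl12b or rpl7b. That of RPN3 was lost without the first wild-type array or the second rpl12b array.

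**Figure D2:**
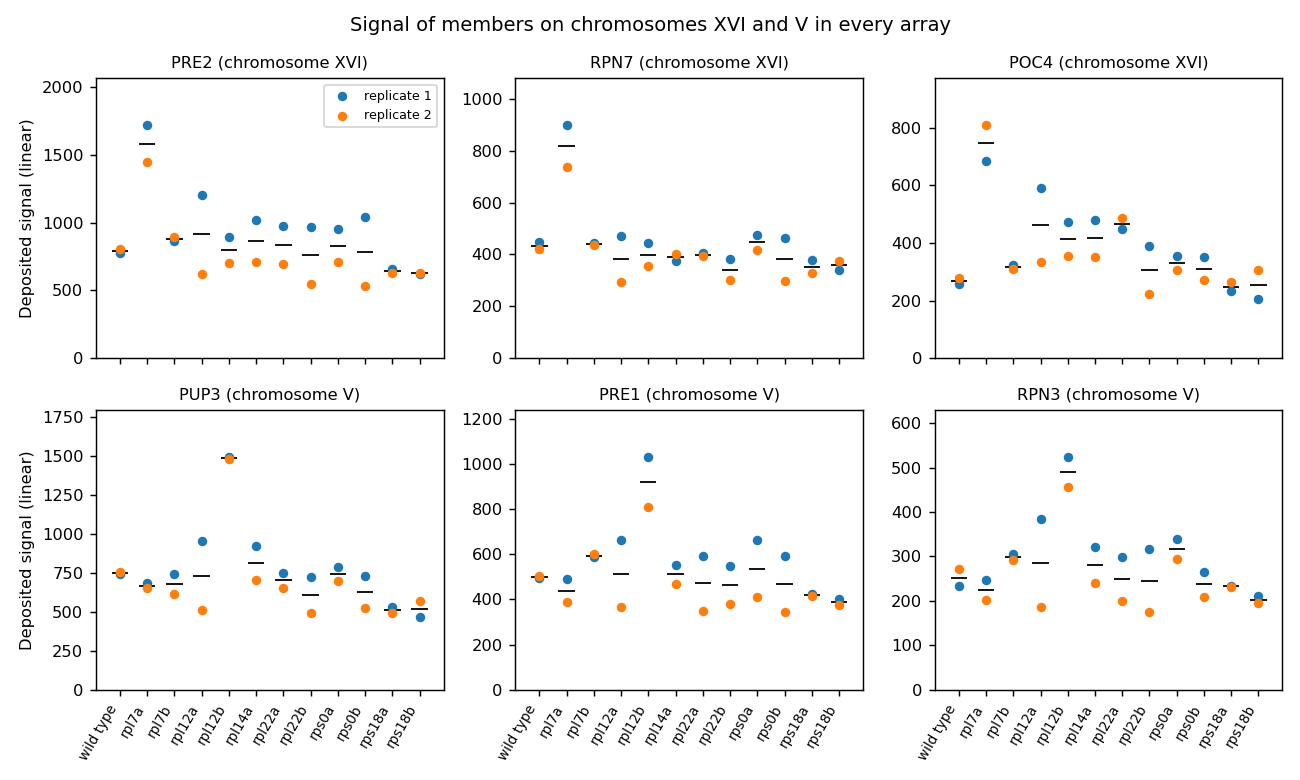
The deposited linear signal of 6 members is plotted in each of the 24 arrays, with points for the replicates and a bar for their mean. PRE2, RPN7 and POC4, on chromosome XVI, are highest in rpl7a, with POC4 at 686 and 809, and PUP3, PRE1 and RPN3, on chromosome V, are highest in rpl12b, with PUP3 at 1497 and 1481.

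In rpl14a 1 member was called higher and 1 lower, where 3.33% of probe sets were called and 1.89% were called higher. ECM29, which tethers the regulatory particle to the core, lies on chromosome VIII (YHL030W) and had signals of 325 and 250 in rpl14a against 104 and 156 in wild type. No array of another strain passed 202. Its difference was 1.11 ± 0.26, with an adjusted p of 0.033. ECM29 has 8 probe sets, and none of the other 7 passed the threshold in rpl14a. The 3 of them above background on all 24 arrays gave 0.50, 0.70 and 0.97, with adjusted p-values of 0.429, 0.126 and 0.279. Dimmer ones, above background on 21, 12 and 11 arrays, gave 2.35, 1.60 and 1.63 (adjusted p 0.0639, 0.218 and 0.25), and the dimmest, above background on 0 arrays, gave -0.0025. The call was also lost without either array of wild type or rpl14a. The other 2 members on chromosome VIII, both of the base, were not called. RPN10, a ubiquitin receptor, had signals of 1505 and 946 in rpl14a against 684 and 658 in wild type, a difference of 0.89 ± 0.24 (adjusted p 0.0579). RPN1, a scaffold that docks ubiquitin-like shuttle proteins, had signals of 767 and 563 against 386 and 403, a difference of 0.75 ± 0.21 (adjusted p 0.0778). Both rpl14a arrays were above both wild-type arrays for each gene.

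NAS2, a chaperone of the base on chromosome IX, was the single member called lower. Its signals were 18.7 and 19.8 in rpl14a against 38.1 and 31 in wild type, and the other strains spanned 15.8 to 34.9. The difference was -0.85 ± 0.22, with an adjusted p of 0.0452, and the arrays did not overlap. NAS2 was the dimmest member, and its call was lost under 22 of 34 alternative settings, among them the removal of any array of 8 of the 12 strains.

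The size of these differences on the raised chromosomes can be set beside the other genes there. In rpl7a the 3 members on chromosome XVI had a median difference of 1.49, the other 39 members one of 0.27, and the other 419 genes of chromosome XVI above background one of 0.95. Of those 419 genes, 48.7% were called higher, against 1.17% of 4773 genes on other chromosomes. In rpl12b the medians were 1.12 for 3 members on chromosome V, 0.21 for the other members and 0.94 for 246 other genes of the chromosome. In rpl14a they were 0.89 for 3 members on chromosome VIII, 0.12 for the other members and 0.79 for 235 other genes of the chromosome. POC4 stood at percentile 97.9 of the chromosome XVI genes in rpl7a, PRE2 at 89.7, and the other 7 members between 46.0 and 79.7 of their chromosomes. Relative to the array median the medians of the 3 members were 1.11, 1.06 and 0.83 in rpl7a, rpl12b and rpl14a.

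**Figure D3:**
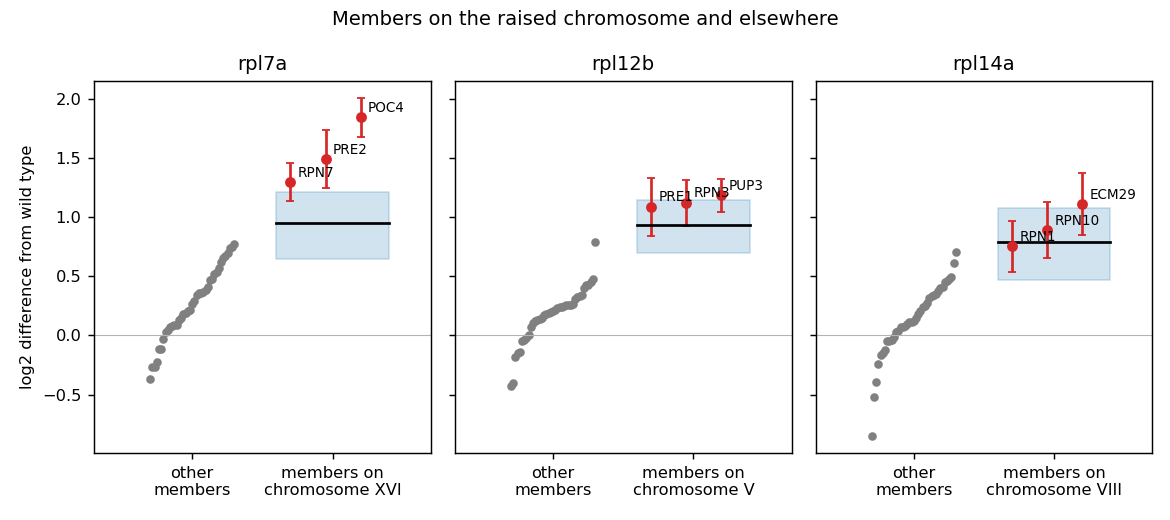
The log2 difference from wild type is plotted for members on the raised chromosome (red, with standard errors) and for the 39 other members (grey, sorted) in 3 strains. The black line and blue band give the median and the interquartile range of the other genes of that chromosome, with medians of 0.95, 0.94 and 0.79.

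In the 10 other deletions POC4 was the single one of these 9 members to be called. PRE2 differed from wild type by 0.11 to 0.37 there, PUP3 by -0.13 to 0.27, PRE1 by 0.07 to 0.36 and RPN3 by 0.04 to 0.33. RPN7 ranged from -0.16 to 0.22. The members on chromosome VIII ranged more widely without a call, ECM29 from -0.23 to 0.76 (highest in rps18b), RPN1 from -0.54 to 0.24 and RPN10 from 0.00 to 0.40.

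POC4 was above wild type in all 11 deletions on both scales. It was called in rpl22a as well, where it was the single member called and 2.44% of probe sets were called. Its signals there were 448 and 486 against 257 and 278 in wild type, a difference of 0.98 ± 0.16 (adjusted p 0.0056). In rpl12b its signals were 474 and 356, a difference of 0.79 ± 0.16 (adjusted p 0.0246). The arrays of both strains lay above both wild-type arrays. The chromosome XVI genes had a median difference of 0.02 in rpl22a and of 0.01 in rpl12b. With median centring both calls were lost, as was that in rpl22a without the first wild-type or the second rpl22a array, and that in rpl12b without any 1 array of the pair of strains. In rpl12a the signals of POC4 were 590 and 334 and the difference was 0.80 (adjusted p 0.0617). In rpl14a they were 480 and 351 and the difference was 0.61 (adjusted p 0.0587). In the remaining 6 deletions POC4 differed by 0.26 to 0.38 and was not called. The unadjusted signals were 234 and 264 in rps18a and 205 and 307 in rps18b, with means of 249 and 256 below the wild-type mean of 267.

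The mean of the 11 deletions differed from wild type for 1 member, POC4, where 0.41% of probe sets were called. The difference was 0.63 ± 0.12, with an adjusted p of 0.0429. All 22 deletion arrays were above both wild-type arrays for POC4 after quantile normalization, and 20 were relative to the array median. After quantile normalization the other members had from 0 such arrays (NAS2) to 21 (PRE9 and PRE3), all set against the same 2 wild-type arrays. The share over all probe sets was not counted. Without rpl7a, a setting chosen after seeing the data, the mean of POC4 over the other 10 deletions differed by 0.51 ± 0.12. The adjusted p was 0.104, so the call was lost. It was also lost without any 1 of 14 arrays, both wild-type arrays among them.

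In 7 deletions no member was called against wild type. The share of probe sets called was 0.0323% in rpl7b, 0.291% in rpl12a, 0.0216% in rpl22b, 0.28% in rps0a, 2.61% in rps0b, 0.668% in rps18a and 0.323% in rps18b. The members with an unadjusted p under 0.05 numbered 0, 2, 0, 1, 7, 5 and 4 in that order, where the share of probe sets was 2.65%, 8.58%, 4.26%, 11.8%, 16.1%, 12.5% and 10.6%. The counts of 7, 5 and 4 of 42 were thus near the share over all probe sets. The member closest to a call in these strains beside POC4 was RPN8 in rps0b, with signals of 287 and 200 against 155 and 171 in wild type. Its difference there was 0.68 ± 0.19, with an adjusted p of 0.0737, and rps0b did not overlap wild type.

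Among the 7 genes of the alpha ring no deletion gave a call. SCL1, PRE8, PRE9, PRE6, PUP2, PRE5 and PRE10 had a median difference from wild type above 0 in all 11 deletions, from 0.05 in rpl22b to 0.52 in rpl7a, but above 0 in 10 relative to the array median. PRE6 varied most by the F test, with signals from 254 on an rpl22b array to 764 on an rps0b array and a strain mean highest in rpl7a and lowest in rpl22b. PRE10 varied least in this ring, with a standard deviation of 0.085 over strain means.

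The 7 beta ring genes were called higher 3 times, each on a raised chromosome. PRE3 and PUP1, which carry the caspase-like and trypsin-like sites, ranged from -0.03 to 0.55 and from -0.18 to 0.36 and were never called. PRE7 ranged from 0.09 to 0.36 and PRE4 from -0.08 to 0.41, also without a call.

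The 6 ATPase genes of the base gave 1 call, RPT6 in rpl7a. RPT1, RPT2, RPT3, RPT4 and RPT5 were never called, with differences between -0.52 (RPT3 in rpl14a) and 0.54 (RPT4 in rpl7a). The strain means of RPT2 had a standard deviation of 0.076, the smallest of the 42. RPN1 and RPN2, the scaffolds of the base, and its receptors RPN10 and RPN13 gave 0 calls. RPN13 was above wild type in all 11 deletions by 0.20 to 0.71, and in 10 relative to the array median. It was 1 of 11 members above wild type in all 11 deletions after quantile normalization. Relative to the array median this held for 1 member, POC4. The share over all genes was not counted. RPN1 was lowest in rpl22a, with signals of 328 and 165 and a difference of -0.54.

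The 8 lid genes gave 3 calls, RPN3, RPN7 and RPN8. RPN5, RPN6, RPN9, RPN11 and RPN12 were never called. RPN6, which contacts the core, kept the narrowest range of the lid genes, from -0.06 to 0.21.

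RPN4, the transcription factor that acts on proteasome genes, was called in no deletion and not by the F test over the 12 strains (adjusted p 0.248). Its signals were 197 and 171 in wild type and ranged from 110 on an rpl22b array to 287 on an rps0b array. In rps0b, where both arrays (287 and 207) were above wild type, the difference was 0.54 ± 0.21 (adjusted p 0.202). In rpl22b, with signals of 172 and 110, it was -0.21. RPN4 was above wild type in 10 of 11 deletions on both scales, none of them past the threshold.

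The medians of the core chaperones were above wild type and those of the base chaperones mostly below, a difference that was not tested. The 4 core chaperones UMP1, POC4, IRC25 and ADD66 had a median difference above 0 in all 11 deletions on both scales, from 0.07 to 0.63, with POC4 called 3 times. UMP1, which is degraded as the core matures, ranged from -0.28 to 0.52 and was not called. IRC25 reached 0.74 in rpl22a (adjusted p 0.106). The 3 base chaperones NAS6, NAS2 and HSM3 had a median above 0 in 2 deletions on both scales, and in the other 9 it was below, down to -0.40 in rps0b. NAS2 was below wild type in 10 of 11 deletions and HSM3 in 9, with HSM3 lowest at -0.59 in rps0b and never called. NAS2 and HSM3 were the only 2 of the 42 below the median brightness of all genes, and the part of their brightness in this difference was not tested.

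**Figure D4:**
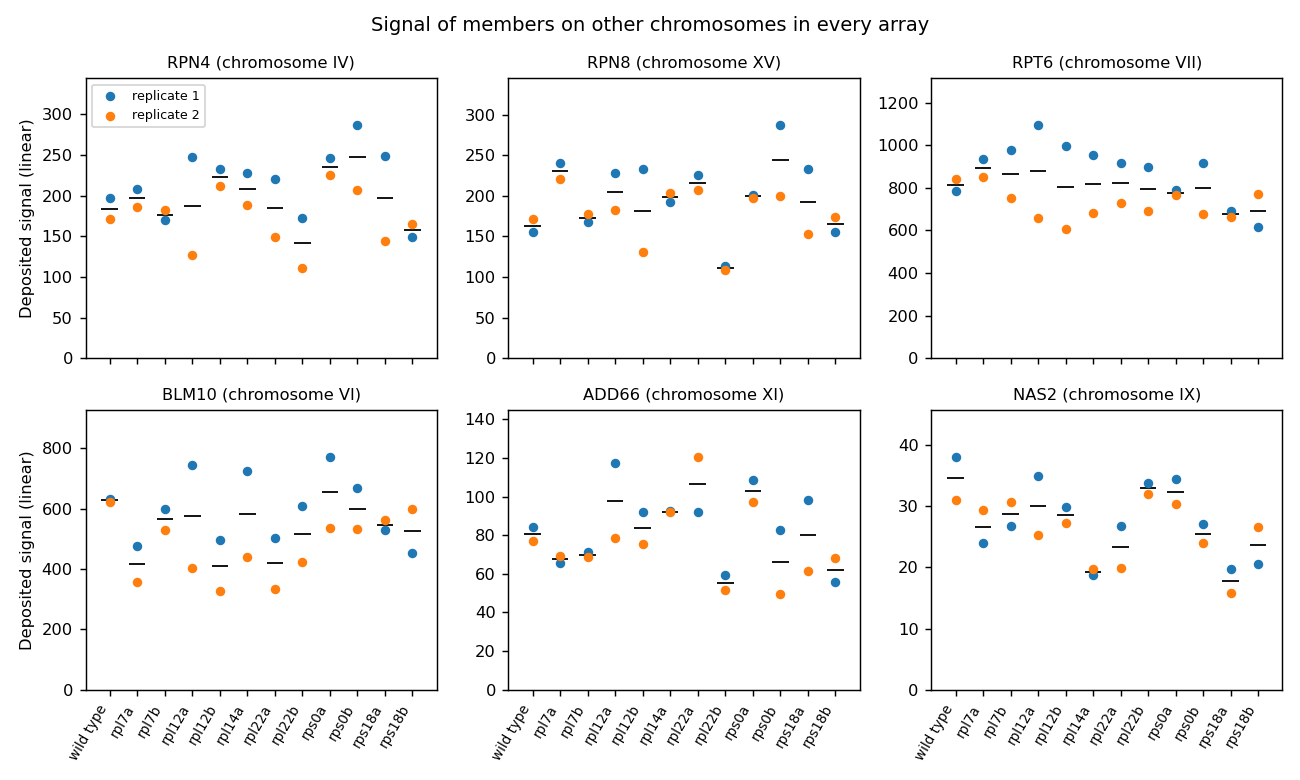
The deposited linear signal of RPN4, RPN8, RPT6, BLM10, ADD66 and NAS2 is plotted in each of the 24 arrays, with a bar for the mean of the 2 replicates. RPN8 is lowest in rpl22b (114 and 108), and NAS2 is at 18.7 and 19.8 in rpl14a against 38.1 and 31 in wild type.

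Between the strains that lacked different copies of a pair, 8 tests of members passed the threshold. In rpl7a against rpl7b, where 5.35% of probe sets were called, PRE2 was higher in rpl7a by 1.26 ± 0.25, RPN7 by 1.19 ± 0.16 and POC4 by 1.55 ± 0.16, with adjusted p-values of 0.0082, 0.00072 and 0.00016. The call of PRE2 was lost without the first array of either strain. RPT6 and RPN8 were not called there. In rpl12a against rpl12b, where 1.65% of probe sets were called, PUP3 was lower in rpl12a by 1.15 (a difference of -1.15 ± 0.14, adjusted p 0.0011) and RPN3 had a difference of -0.97 ± 0.19 (0.0204). The call of RPN3 was lost without either rpl12a array or the second rpl12b array. PRE1 had a difference of -0.99 ± 0.24 and an adjusted p of 0.058. These genes all lie on the raised chromosomes XVI and V.

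In rpl22a against rpl22b, where 2.82% of probe sets were called, all chromosome medians against wild type lay between -0.11 and 0.12 and 3 members were higher in rpl22a. RPN8 had signals of 225 and 207 in rpl22a and of 114 and 108 in rpl22b, with wild type between them at 155 and 171. Its difference was 0.89 ± 0.19, with an adjusted p of 0.0233. ADD66, a chaperone of the alpha ring, had signals of 91.9 and 121 in rpl22a and of 59.6 and 51.4 in rpl22b, with wild type again between them at 84.3 and 76.9. Its difference was 0.84 ± 0.20, with an adjusted p of 0.0424. POC4 had signals of 448 and 486 against 391 and 223, a difference of 0.66 ± 0.16 (adjusted p 0.0471). The arrays of the pair did not overlap for any of the 3 genes. Against wild type, neither RPN8 nor ADD66 passed in either strain. The call of RPN8 was lost without any 1 of the 4 arrays. The calls of ADD66 and POC4 were lost under most alternatives, 21 of 34 and 24 of 33. No member was called in rps0a against rps0b, where 0.0863% of probe sets were called, or in rps18a against rps18b, where 0.0108% were, and 3 and 1 members had an unadjusted p under 0.05, where 8.42% and 4.79% of probe sets did.

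Large and small subunit deletions were compared with the strain as the unit, 7 against 4. BLM10, an activator that caps the core in place of the regulatory particle, was the single member called, where 3.32% of probe sets were called. Its strain means on the normalized log2 scale ran from 8.66 to 9.02 in the large subunit deletions and from 9.22 to 9.37 in the small subunit ones, with wild type between them at 9.09. The 2 classes did not overlap, and the difference was -0.42 ± 0.09 (adjusted p 0.032). Relative to the array median the difference was -0.27 and the classes overlapped, from 3.11 to 3.58 against 3.50 to 3.74. The call was lost with median centring, when rpl7a, rpl12b and rpl14a were left out, and without any 1 of 6 arrays (the second of rpl7a, rpl12a, rpl14a or rpl22b, or the first of rpl22a or rps0a).

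A moderated F test for any difference among the 12 strains called PUP3, PRE2, RPN3, RPN7, RPN8 and POC4, 6 of the 42 genes or 14.3%. All of these but RPN8 lie on chromosome V or XVI, the chromosomes raised in rpl12b and rpl7a. Of all genes 13.7% were called, and of all probe sets 11.4%. Without either wild-type array, either rpl7a array or the first rpl7b array 3 members were called. Over the 42 genes the standard deviation of the strain means had a median of 0.218, next to a median standard deviation between replicates of 0.207. Over all genes these medians were 0.259 and 0.271.

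Summed up by strain, most members sat slightly above wild type after quantile normalization. The median difference of the 42 genes was 0.31 in rpl7a, 0.25 in rps18a, 0.22 in rpl12b, 0.18 in rpl22a and in rps18b, 0.16 in rpl14a, 0.15 in rpl12a, 0.13 in rps0a, 0.11 in rpl7b, 0.09 in rps0b and 0.01 in rpl22b. Over all genes the medians of these comparisons lay between -0.03 and 0.01. With no normalization the median of the 42 was above 0 in 5 of 11 deletions and lay between -0.31 and 0.14. The median over all probe sets then lay between -0.36 (rps18b) and 0.09 (rps0a). Relative to the array median the direction was not kept: the median of the 42 turned to -0.13 in rps0a, -0.05 in rps0b and -0.02 in rps18a, and in the other 8 strains it lay between 0.02 and 0.14. In rps0a this rested on replicate 2, the array with the high background: replicate 1 alone gave 0.09 and replicate 2 alone -0.36, against 0.19 and 0.09 after quantile normalization. On the relative scale the median over all genes lay between -0.14 and 0.02. A total of 40 of the 42 members had at least the median brightness of all genes. The 2788 other genes that did had medians of -0.21 to 0.01 on the relative scale and of -0.02 to 0.04 after quantile normalization. On the relative scale these medians were -0.21 in rps0a, -0.10 in rps0b and -0.13 in rps18a. The median of the 42 lay above that of these brighter genes in every deletion on this scale, by 0.003 in rpl22b to 0.25 in rpl7a. That difference was not tested. Of the 462 member differences, 355 were above 0 after quantile normalization and 271 relative to the array median. Over all genes 45.7% (rpl14a) to 51.7% (rps18a) were above 0 in a deletion after quantile normalization. The share over all genes was not counted on the relative scale. None of the 12 called differences was among the 88 member differences that turned between the scales.

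**Figure D5:**
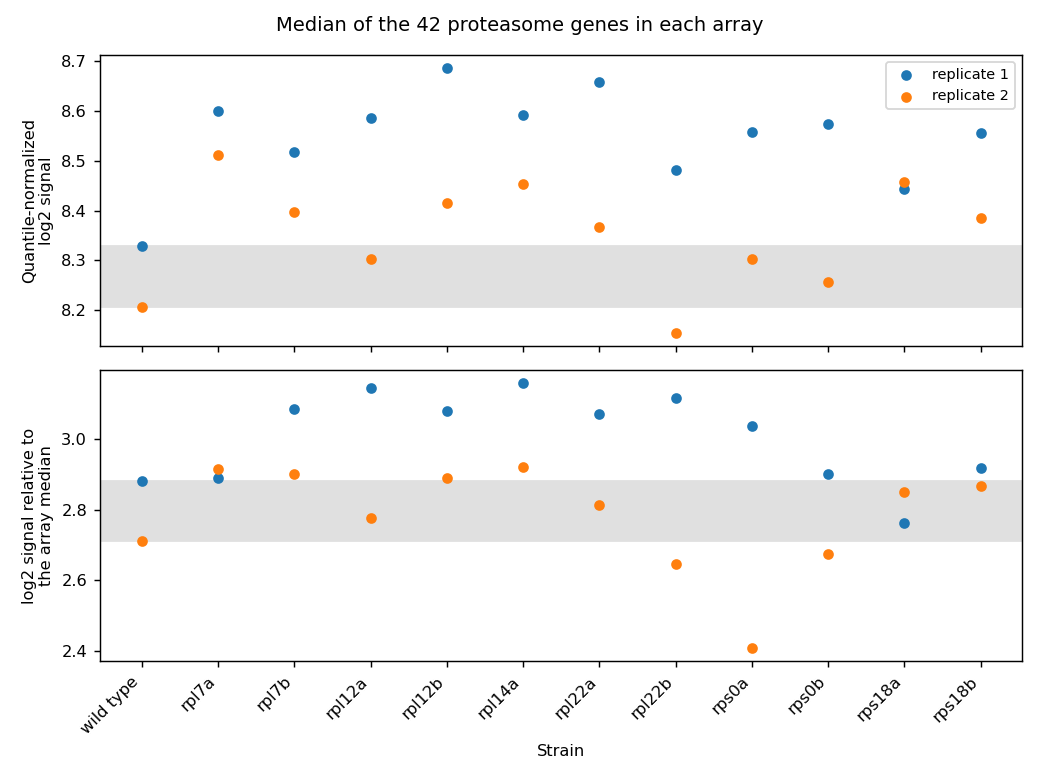
The median of the 42 genes is plotted for each array after quantile normalization (top, log2 signal) and relative to the array median (bottom), with a grey band over the 2 wild-type arrays. After quantile normalization rpl22b replicate 2 alone lies below the band among the deletion arrays, while relative to the array median rps0a replicate 2 is lowest at 2.41. Replicate 1 is above replicate 2 in 11 of 12 strains at the top and in 10 at the bottom.

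After quantile normalization the medians of rpl7a and rpl22b lay furthest apart, and relative to the array median those of rpl14a (0.14) and rps0a (-0.13) did. In rpl7a both arrays were above both wild-type arrays for 26 of the 42 genes, where this held for 23.3% of probe sets, and for 19 relative to the array median, where it held for 21.2%. In rpl22b it held for 4 of the 42, where it held for 15.5% of probe sets, and for 5 relative to the array median, where it held for 21.8%. Both strains were picked by the medians of the same 42 genes, so these counts are no separate result. PRE2, RPN7 and POC4 are among the 26. In the other deletions the count ran from 12 (rps0b, 22.9% of probe sets) to 21 (rpl7b, 16.4%). Relative to the array median it ran from 0 (rps0a, 13.2%) to 17 (rpl14a, 21.3%). Over the 12 strains, rpl7a had the highest mean for 15 members and rpl22b the lowest for 14. Wild type was lowest for 11 members, but relative to the array median it was lowest for POC4 alone, and rps0a for 11.

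Beyond the 42 genes, 38 listed genes of ubiquitin transfer, substrate delivery and RPN4 control were measured, and 4 of their 418 tests against wild type passed, all higher, or 0.957%, where 1.69% of all probe-set tests passed and 0.909% passed as higher. In rpl12b these were DDI1, a shuttle protein for ubiquitinated substrates, at 1.56 ± 0.21 (adjusted p 0.0022), and RSP5, a ubiquitin ligase, at 0.93 ± 0.21 (0.0361). Both lie on chromosome V, as do RAD23 (1.10, adjusted p 0.122) and UBC6 (1.19, 0.091), which were not called. CIC1, a proteasome-bound nucleolar protein encoded on chromosome VIII, was higher in rpl14a by 0.89 ± 0.15 (adjusted p 0.0048) and in rps0b by 0.61 ± 0.15 (0.049). Between paralog deletions, the conjugating enzyme UBC1 was higher in rpl7a than in rpl7b by 0.81 ± 0.20 (0.0261). The proteasome-bound ligase HUL5 had a difference of -1.13 ± 0.26 in rpl22a against rpl22b (0.0345), and in rpl12a against rpl12b DDI1 had one of -1.24 and RSP5 one of -0.94. TOM1, a ubiquitin ligase, was lower in large than in small subunit deletions (-0.32 ± 0.08, adjusted p 0.0489). The F test called CIC1, DDI1 and UBC1. None of HSF1, PDR1, PDR3 and YAP1, which control RPN4, was called in any comparison. The calls of these 38 genes were not checked under alternative processing.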

How the data were processed

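RNA was measured on 24 Affymetrix arrays. The authors deposited an intensity for each probe set in each array, linear in scale. Their probe summary and any scaling of arrays are not stated in the labels or file. From 9335 probe sets, 60 controls were set aside. Of the 9275 tested, 6504 carry 1 gene name, 328 several and 2443 none. Names and chromosomes came from a RefSeq gene table. Values under 3.6, the 10th percentile, were raised to it (9.71% of values) before log2 and quantile normalization. Background in an array was set at percentile 95 of 19 foreign (non-yeast) controls. Group means of 12 strains were fitted in limma 3.58.1 (R 4.3.3, 12 residual degrees of freedom), with Benjamini-Hochberg adjustment over probe sets. Large and small subunit deletions were compared in limma on strain means. Precision is limited by 2 arrays per strain. The p-values rest on the spread between replicate arrays, pooled over the 12 strains. Those for large against small subunit deletions rest on the spread between the strains of a class. The steps were tested on simulated data.

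The members and lists were chosen with earlier results of these data known. Every member is accounted for. Values are given for members called in any comparison, RPN4 and the member of each role with the largest F, and of the other lists for called genes. Replicate numbers were not used as a pairing.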

Additional observations from a re-analysis of the deposited data

Results flagged for a closer look

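The results below are differences between strains that lack different copies of 1 pair, each past the threshold in limma's test of the difference itself. In rpl7a against rpl7b they were PRE2 at 1.26, RPN7 at 1.19 and POC4 at 1.55. In rpl12a against rpl12b they were PUP3 at -1.15 and RPN3 at -0.97. In each of these the member lies on the chromosome that is raised in rpl7a or rpl12b, and chromosome copy number was not measured. In rpl22a against rpl22b they were ADD66 at 0.84, POC4 at 0.66 and RPN8 at 0.89, where chromosome medians lay between -0.11 and 0.12. RPN8 was the member with the lowest adjusted p of the 3. Its call was lost under 6 of 34 alternatives, against 21 of 34 for ADD66 and 24 of 33 for POC4. The 6 include the removal of any 1 of the 4 arrays of the pair, and no normalization.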

How the results depend on the processing

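Without normalization the members called were 2 against wild type in all, 1 in rpl7a, 0 in rpl12b, 0 in rpl14a, 0 between paralog deletions, 0 by the F test, 0 for the mean of the deletions and 0 for large against small subunit deletions, in place of 12, 5, 4, 2, 8, 6, 1 and 1. With median centring they were 6, 3, 2, 1, 4, 3, 0 and 0. With only the arrays compared, and so 2 residual degrees of freedom, the first 5 counts were 0. Without the probe sets of chromosomes V, VIII and XVI the first 7 were 3, 3, 0, 0, 2, 1 and 0, from fewer members. With log2(value + 1) they were 1 in rpl14a, 3 by the F test, 0 for the mean and 0 for large against small. With the probe set of lowest mean the count in rpl14a was 1, and ECM29 turned to -0.0025. Without rpl7a, rpl12b and rpl14a the count for large against small was 0, and for the mean, chosen after seeing the data like the mean without rpl7a, both gave 0. Leaving out 1 array at a time gave 4 to 17, 3 to 7, 1 to 4, 0 to 4, 5 to 9, 3 to 8, 0 to 1 and 0 to 1. The lowest total, 4, came without the first wild-type array, and 6 without the second. The cause was not tested. With the replicate number as a block the counts were 15, 7, 4, 3, 10, 10 (F test, in place of 6) and 1. Deviations of same-numbered arrays correlated at -0.01 to 0.19 over 66 pairs of strains, with a median of 0.06 and 19 pairs over 0.1, and the labels do not say what a number stands for, so the arrays were treated as unpaired. The floor at the 25th percentile, the removal of dim probe sets and limma's trend and robust options kept each count within 1.5 times. The direction of every called member difference except that of ECM29 was kept in all settings run. The search for a promoter motif and its alternative were not run, and a block for large against small was not run, its unit being the strain. Probe sets near background, such as NAS2, limit precision.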

Other observations

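The neighbours of POC4 on chromosome XVI can be set beside it across the strains. KES1, an oxysterol-binding protein gene next to POC4, was higher in rpl7a by 0.89 ± 0.19 (limma, adjusted p 0.0106) and ranged from -0.07 to 0.39 in the 10 other deletions without a call. In rpl22a, where POC4 differed from wild type by 0.98, KES1 differed by 0.20. RPL33A, the nearest protein gene on the other side, encodes a ribosomal protein and ranged from -0.14 to 0.20 without a call, rpl7a included. NOP53, a ribosome assembly gene, differed by 1.05 ± 0.38 in rpl7a (adjusted p 0.132) and by 0.56 ± 0.38 in rpl22a. It was not called in any deletion. The differences between POC4 and its neighbours were not tested.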
